A study of Mus musculus with 8 samples.

Results

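Erythroid GATA1 target genes were taken as 8 named mouse genes: Klf1, Tal1, Lmo2, Gfi1b, Epor, Slc4a1, Epb42 and Ank1. They were chosen by name from the 21900 protein-coding genes of the RefSeq annotation of GRCm38 (mm10), and all 8 were found in it. Their loci were searched for peaks of ZGLP1, a germ cell nuclear protein with GATA-like zinc fingers, in a list of 32927 peak summits. A summit is the single base at which a peak is highest. The libraries came from mouse embryonic stem cells (ESCs) of a C57BL/6 x DBA2 background and from primordial germ cell-like cells (PGCLCs) derived from such cells in culture. In all of them doxycycline (Dox) induced an introduced Zglp1 with a V5 tag, so the protein was forced and tagged in every library, inputs included. Cells were sorted for mCherry, and PGCLCs also for a reporter that the labels call SC. Chromatin was collected with a rabbit polyclonal antibody against V5, from the same number of cells for each ChIP library.

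The 5 ChIP libraries came from PGCLCs on culture day 7 or day 8 (c7 and c8), each after Dox only or after Dox and retinoic acid (RA) from day 3, and from ESCs after 24 h of Dox and RA. The 3 inputs came from c8 PGCLCs after Dox only, from c8 PGCLCs after Dox and RA, and from ESCs after Dox and RA. Each group had 1 library. The deposited list of all peaks names no library and gives no height, so treatments, days and cell types could not be compared here, nor could the cell types be checked against marker genes. Every value below is a position or a count of positions. The depth behind a summit is unknown, and an absent summit can mean no binding or a peak under the authors' threshold.

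GATA1 is the transcription factor that drives red blood cell formation. It reads the letters GATA, most often within AGATAA or TGATAA or their variants ending in G, and works in a complex with TAL1 and LMO2 at enhancers and promoters of erythroid genes. ZGLP1 carries zinc fingers related to those of the GATA family, whose best known targets include these red cell genes. The question addressed is where the summits of a GATA-like protein made in germ cell-like cells lie at these genes.

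Few summits lay at the ends of the 8 genes. Most of those within 50 kb lay closer to ends of other genes, a split for which no background was computed. Of the 8 genes, 1 (12.5%) had a summit 1 kb or less from its start or end, where 52.9% of all protein-coding genes had one. Within 10 kb the count was 5 of 8 (62.5%), beside 66.6% of protein-coding genes, and within 50 kb it was 7 of 8 (87.5%), beside 78.0%. A summit lay inside 4 of 8 genes (50.0%), beside 54.5%. The shares at 10 kb, at 50 kb and inside the gene thus lay near the background, and the share at 1 kb lay below it. With 8 genes and no replicates these shares are descriptions.

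The count at 1 kb depended on that limit. Ank1 lay inside it, at 544 bases, while Klf1 and Gfi1b lay just outside, at 1197 and 1787 bases. At 2 kb, a limit chosen after these distances were seen, 3 of 8 genes had a summit, beside 57.3% of protein-coding genes. The closest summit then lay at 2778 bases for Epor, 9393 for Epb42, 10663 for Slc4a1, 11454 for Lmo2 and 56216 for Tal1. The median closest distance was 6086 bases for the 8 genes and 658 bases for all protein-coding genes. Among genes of 0.5 to 2 times the length of each of the 8, the share at 1 kb was 48.7% to 62.5%, lowest for genes like Klf1 and highest for genes like Ank1.

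The 8 genes and the stretches within 50 kb of them held 59 summits. For 11 of the 59, the nearest end of a protein-coding gene was that of the erythroid gene itself. For the other 48 it belonged to another gene, and 21 of these 48 lay within 1 kb of that other gene's end. Inside the erythroid genes lay 8 summits. Of the 51 outside, 38 lay inside another protein-coding gene. Stretches this wide hold other genes too, and these splits were not computed for all protein-coding genes. They describe the 8 loci and are not read as a trait of them.

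**Figure D1:**
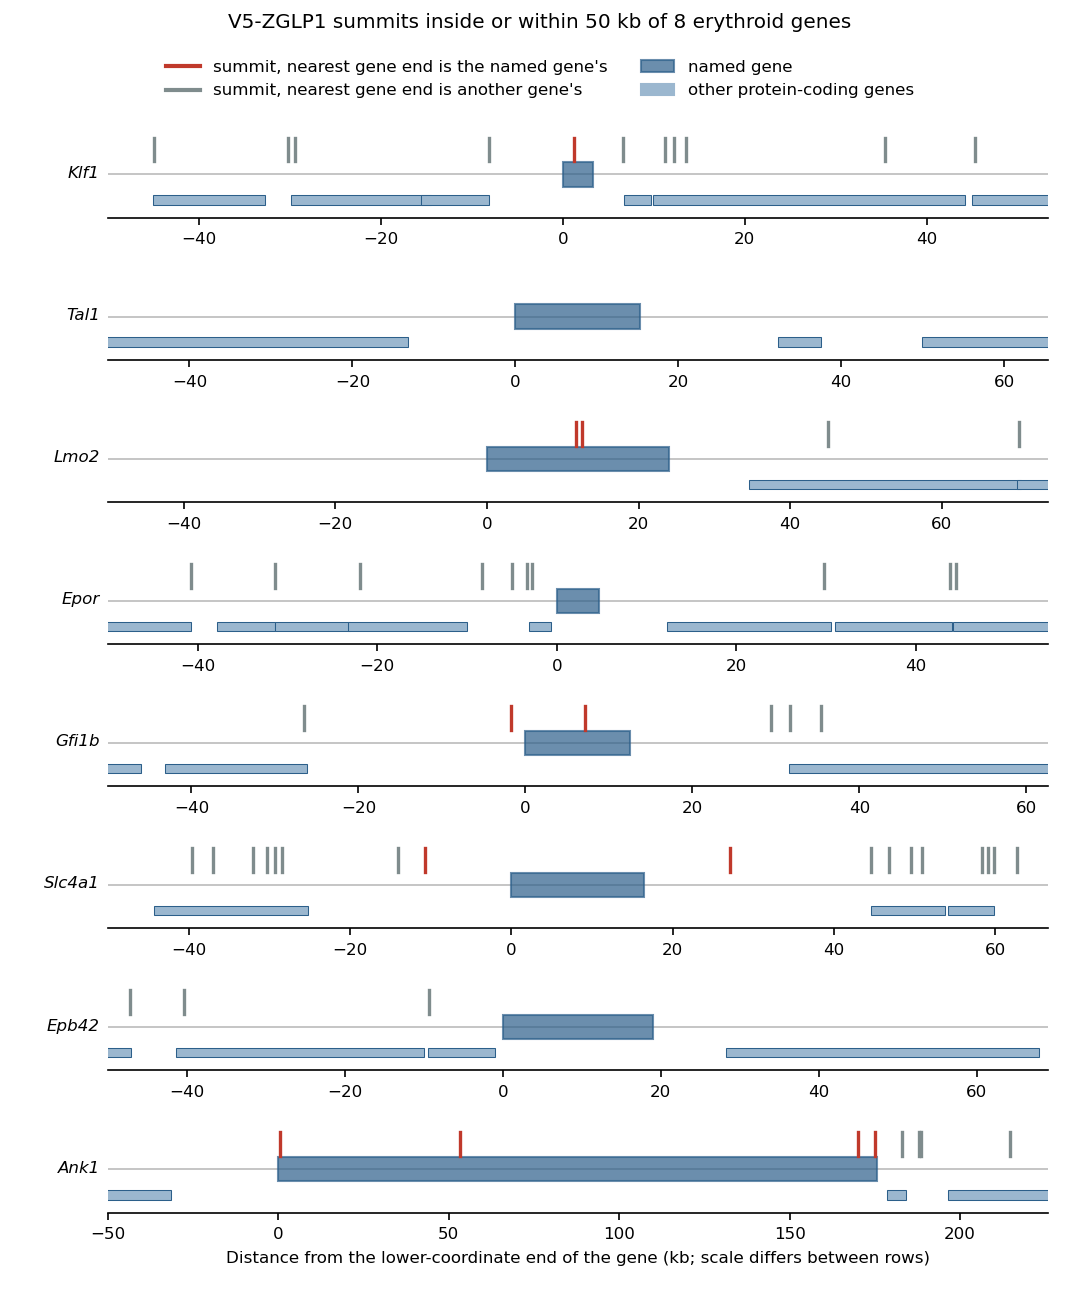
Map of the 8 loci, with distance in kb from the lower-coordinate end of each gene on the horizontal axis. Dark boxes are the erythroid genes, pale boxes other protein-coding genes (overlapping ones are drawn over each other) and vertical strokes summits, red where the nearest gene end is that of the erythroid gene (11 of 59) and grey where it is another gene's (48 of 59). The Tal1 row holds no summit.

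The neighbours of the 8 genes were counted in the same way. The protein-coding genes overlapping the 50 kb stretches numbered 32, and 24 of them (75.0%) had a summit within 1 kb of an end. The count was 1 of 8 (12.5%) for the erythroid genes, and the share of all protein-coding genes was 52.9%. The difference was not tested. Beside Epor this held for 7 of 8 neighbours, and beside Klf1 for 5 of 6. At Tal1 it held for 1 of 3. In 8 of 8 loci at least 1 neighbour had a summit closer to its end than the erythroid gene had. This sets the closest of several neighbours against 1 gene, which favours the neighbours. The share of all protein-coding genes by the same measure was not computed, so no trait of the 8 genes is read from it. In the Ank1 locus Kat6a and Gpat4 had a summit at 63 and 82 bases, against 544 bases for Ank1.

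**Figure D2:**
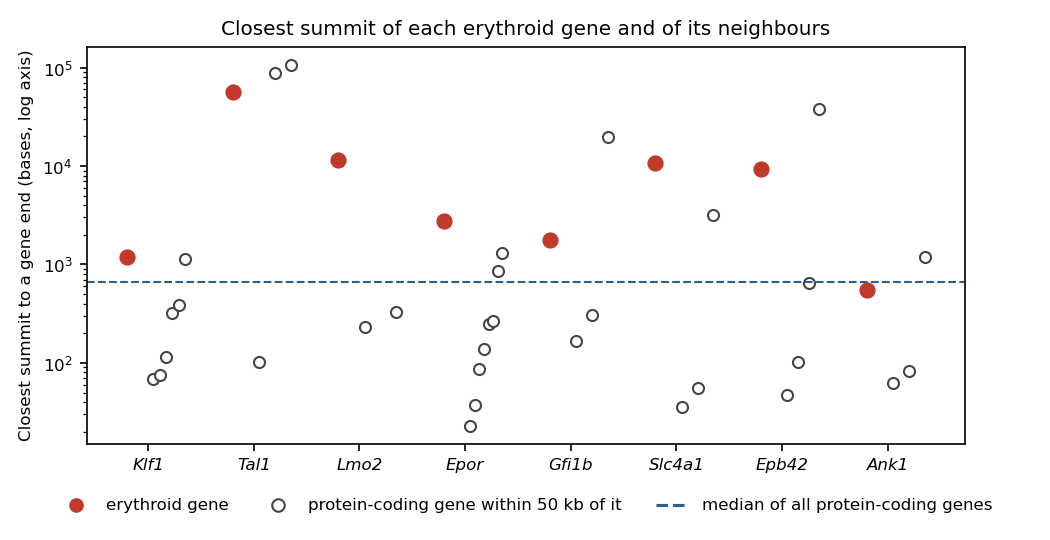
Distance in bases (log axis) from a gene end to the closest summit, for each of the 8 erythroid genes (filled points) and the 32 protein-coding genes within 50 kb of them (open points). The dashed line is the median of all protein-coding genes, 658 bases, and 1 of the 8 filled points, Ank1, lies under it.

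Promoters of 5 of the 8 genes could be read; all 5 genes carry there the letters that GATA factors read, and no summit lay in these windows. RefSeq promoter windows of GRCm38.p6, from 250 bases before to 50 bases after a start site, were matched for 5 of the 8 genes (Klf1, Tal1, Epor, Gfi1b and Epb42), in 6 windows because Tal1 has 2. AGATAA or AGATAG or TGATAA or TGATAG, searched on both strands and called a GATA site here, occurred in 5 of the 6 windows and in all 5 genes. Of all 32851 promoter windows 29.8% held such a site, as did those of 33.0% of the 27025 genes in the promoter table. A summit lay in 0 of the 6 windows, beside 18.8% of all windows. The windows with a site are printed 5′ to 3′ along the gene, with the GATA site in capitals.

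Klf1: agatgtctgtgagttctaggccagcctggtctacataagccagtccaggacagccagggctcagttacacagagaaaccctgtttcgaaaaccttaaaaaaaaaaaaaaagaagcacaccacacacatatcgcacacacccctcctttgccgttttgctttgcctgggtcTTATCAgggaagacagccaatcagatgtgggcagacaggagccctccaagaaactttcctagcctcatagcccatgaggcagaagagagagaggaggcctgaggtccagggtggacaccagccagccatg
Tal1: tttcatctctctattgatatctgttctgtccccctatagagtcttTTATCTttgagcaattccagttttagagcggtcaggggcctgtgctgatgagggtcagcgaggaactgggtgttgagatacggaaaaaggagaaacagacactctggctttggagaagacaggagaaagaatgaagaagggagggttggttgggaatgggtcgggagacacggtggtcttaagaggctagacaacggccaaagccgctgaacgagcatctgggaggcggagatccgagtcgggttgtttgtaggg
Epor: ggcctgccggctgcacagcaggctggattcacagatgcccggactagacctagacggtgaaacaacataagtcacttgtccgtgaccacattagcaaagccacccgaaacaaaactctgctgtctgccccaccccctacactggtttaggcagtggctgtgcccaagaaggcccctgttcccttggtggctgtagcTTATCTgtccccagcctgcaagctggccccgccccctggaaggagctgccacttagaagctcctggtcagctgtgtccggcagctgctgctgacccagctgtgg
Gfi1b: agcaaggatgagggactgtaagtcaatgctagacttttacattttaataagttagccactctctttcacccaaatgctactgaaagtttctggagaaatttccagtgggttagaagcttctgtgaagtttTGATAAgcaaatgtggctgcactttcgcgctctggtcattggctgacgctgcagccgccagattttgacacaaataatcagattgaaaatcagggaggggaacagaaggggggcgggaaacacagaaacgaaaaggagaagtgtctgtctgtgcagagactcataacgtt
Epb42: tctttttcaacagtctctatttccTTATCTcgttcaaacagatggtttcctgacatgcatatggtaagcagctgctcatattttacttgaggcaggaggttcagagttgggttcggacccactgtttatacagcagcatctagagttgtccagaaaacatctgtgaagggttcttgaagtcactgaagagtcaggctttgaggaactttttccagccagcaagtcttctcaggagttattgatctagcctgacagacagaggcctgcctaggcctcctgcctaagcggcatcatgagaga

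These windows lie at chr8:84901732-84902031 (Klf1, plus strand), chr4:115056176-115056475 (Tal1, plus strand), chr9:21963527-21963826 (Epor, minus strand), chr2:28621933-28622232 (Gfi1b, minus strand) and chr2:121036828-121037127 (Epb42, minus strand). Counted from the start site, the first base of the site stood at -54 in Epor, -80 in Klf1, -120 in Gfi1b, -205 in Tal1 and -226 in Epb42. It read TGATAA on the printed strand in Gfi1b, TGATAA on the opposite strand in Klf1, and AGATAA on the opposite strand in Tal1, Epor and Epb42. From the closest start site to the closest summit were 1197 bases in Klf1, 5397 in Gfi1b, 7457 in Epor, 28379 in Epb42 and 56216 in Tal1. Counted from start sites, 0 of the 5 genes had a summit at 1 kb or less, beside 42.5% of genes in the promoter table, and 3 of 5 had one at 10 kb or less, beside 53.7%. CACCC, the letters read by KLF factors, occurred in 4 of the 6 windows (57.5% of all windows on either strand), and CANNTG, read by TAL1 and its partners, in 5 of the 6 (72.3%).

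For comparison, 3 neighbours' promoters that did hold a summit are printed in the same way. They were chosen, after their values were seen, as promoters close to Klf1, Epor and Gfi1b.

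Dnase2a: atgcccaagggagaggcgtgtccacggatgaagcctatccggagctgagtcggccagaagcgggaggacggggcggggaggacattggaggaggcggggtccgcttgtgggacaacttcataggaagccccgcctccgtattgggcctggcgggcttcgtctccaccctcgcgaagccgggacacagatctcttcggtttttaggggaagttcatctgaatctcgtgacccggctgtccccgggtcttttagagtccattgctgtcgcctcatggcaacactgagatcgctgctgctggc
Swsap1: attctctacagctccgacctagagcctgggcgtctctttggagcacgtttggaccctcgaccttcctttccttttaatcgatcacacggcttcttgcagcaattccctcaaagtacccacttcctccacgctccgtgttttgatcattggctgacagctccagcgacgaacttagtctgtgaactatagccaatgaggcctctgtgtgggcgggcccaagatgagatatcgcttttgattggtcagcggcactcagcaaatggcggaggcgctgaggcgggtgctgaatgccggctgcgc
Tsc1: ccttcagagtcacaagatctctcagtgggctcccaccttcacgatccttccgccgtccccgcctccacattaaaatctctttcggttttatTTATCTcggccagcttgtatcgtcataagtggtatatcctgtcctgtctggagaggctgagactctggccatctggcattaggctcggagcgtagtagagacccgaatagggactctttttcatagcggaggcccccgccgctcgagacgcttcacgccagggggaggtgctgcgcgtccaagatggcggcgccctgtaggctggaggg

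They lie at chr8:84908505-84908804 (Dnase2a, plus strand), chr9:21955503-21955802 (Swsap1, plus strand) and chr2:28640983-28641282 (Tsc1, plus strand). The summit stood 115 bases before the start site of Dnase2a, 140 bases before that of Swsap1 and 72 bases before that of Tsc1. The Tsc1 window holds 1 GATA site and the Dnase2a and Swsap1 windows hold none. Of the 26 neighbouring genes with a promoter in the table, 5 (19.2%) had a GATA site and 11 (42.3%) a summit in a window, with 5 of 5 and 0 of 5 for the erythroid genes. Over all 27025 genes of the table the shares were 33.0% and 21.2%.

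The windows also differed in CpG count, the number of CG pairs in 300 bases. Klf1 and Epb42 had 3, Epor and Gfi1b 7, and Tal1 11 and 22 in its windows. The Dnase2a, Swsap1 and Tsc1 windows had 22, 18 and 20. Over all windows the median was 24 CpG in those with a summit and 5 in those without. A summit lay in 1.71% of windows with 3 to 5 CpG and in 8.89% of those with 6 to 11, the classes of 5 of the 6 erythroid windows, against 37.2% at 12 to 23 and 47.7% at 24 to 67. The second Tal1 window, with 22 CpG and no GATA site, had no summit either. The part of CpG count in the absence of summits at these promoters was not tested.

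GATA sites were less frequent in windows with a summit over the whole table, at 13.9% against 33.4% of windows without one. Within classes of CpG count the difference varied. At 0 to 2 CpG 30.6% of windows with a summit, which were 36, and 48.6% of those without held a site. At 3 to 5 CpG 34.2% of windows with a summit and 39.4% of those without held a site, at 6 to 11 CpG 25.2% and 31.9%, at 12 to 23 CpG 17.5% and 19.5%, and at 24 to 67 CpG 8.50% and 7.16%. In the last class the direction turned. A match of letters is a description and not a binding site.

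**Figure D3:**
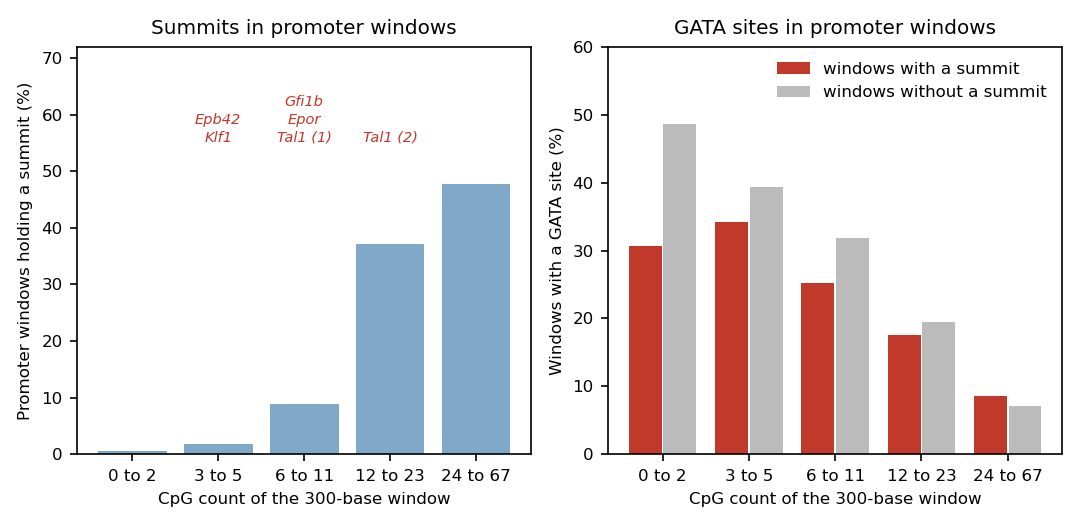
Left, percent of 300-base promoter windows that hold a summit, by CpG count, with the classes of the erythroid genes' 6 windows written above the bars; none of these 6 windows holds a summit. Right, percent of windows with a GATA site among windows with a summit (red) and without (grey) in the same CpG classes, from 30.6% and 48.6% in the lowest class to 8.50% and 7.16% in the highest.

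Among the regulators, Klf1 (chromosome 8, 84901982 to 84905291) encodes the zinc finger activator of adult globin and other late red cell genes. It had 1 summit inside, at 84903179, 1197 bases after its start, and 10 more within 50 kb. Of these 11, the inside summit alone had an end of Klf1 as its nearest gene end. Those at 84893852 and 84908640, the nearest on either side, lay 69 bases from an end of Gcdh, a mitochondrial dehydrogenase gene, and 115 bases from an end of Dnase2a, the gene of the nuclease with which macrophages degrade nuclei expelled by red cell precursors. Mast1 was nearest to 4, and Syce2, which encodes a protein of the meiotic synaptonemal complex, to 2, the closest of them 387 bases from its end. The stretch around Klf1 held 10.6 summits per 100 kb, more than around 93.7% of protein-coding genes.

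Gfi1b (chromosome 2, 28609450 to 28621982) encodes a zinc finger repressor needed for red cell and platelet precursors. It had 1 summit inside, at 28616585, 5397 bases after its start site, and 1 at 28607663, 1787 bases beyond its 3′ end. For both, the nearest gene end was that of Gfi1b, so this locus held summits that no other gene's end lay closer to, though none at its start. Upstream, 3 summits stood at 16844, 19179 and 22891 bases from Gfi1b, all nearest to Tsc1, a growth-control gene, with the middle one 168 bases from its end. A sixth lay 309 bases from an end of Gtf3c5.

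Lmo2 (chromosome 2, 103957903 to 103981878) encodes the bridging protein that joins TAL1 and GATA1 in a complex. Its 2 inside summits stood near the middle of the gene, at 103969642 and 103970424, and were 11739 and 12521 bases from its lower end. The promoter table had no entry for Lmo2, so whether a start site lay near these summits could not be seen. No summit lay within 10 kb of either end. Below the gene the next summit lay 160391 bases away, by Caprin1, and above it 2 lay within 50 kb, at 21048 and 46249 bases, both nearest to 4931422A03Rik. For both inside summits the nearest gene end was that of Lmo2.

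Tal1 (chromosome 4, 115056426 to 115071755), the basic helix-loop-helix partner of GATA1 in blood formation, was alone among the 8 in having no summit inside or within 50 kb. Of all protein-coding genes 21.7% had none by that measure. The closest summit below, at 115000210, stood 102 bases from an end of Stil, the centrosome gene next to Tal1, and the closest above lay 486611 bases beyond Tal1, so that 558156 bases passed without a listed summit. Erythroid enhancers of mouse Tal1 are known beyond its 3′ end, which falls in this empty stretch. The neighbours Pdzk1ip1 and Cyp4x1 had none within 50 kb either, at 88498 and 106113 bases.

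Epor (chromosome 9, 21958897 to 21963576) encodes the receptor through which erythropoietin keeps red cell precursors alive. It held no summit inside and 4 within 10 kb, all beyond its 3′ end, at 2778, 3284, 5042 and 8378 bases. The first 3 were nearest to Swsap1, a gene of homologous recombination that ends 627 bases from Epor, and the fourth to Plppr2. Upstream of the Epor start the next summit stood at 25038 bases, by Rgl3. All 10 summits within 50 kb were nearest to the end of another gene, although their density, 9.55 per 100 kb, exceeded that around 91.6% of protein-coding genes.

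Among the membrane genes, Ank1 (chromosome 8, 22974836 to 23150501) encodes ankyrin, which ties the spectrin skeleton to the red cell membrane, and is the longest of the 8 at 175666 bases. It had 4 summits inside. They stood 544 and 53163 bases from its lower end and 5488 and 627 bases from its upper end, so that each end had 1 within 1 kb. For all 4 the nearest gene end was that of Ank1, whose start sites were not in the promoter table either. Of genes with 0.5 to 2 times its length, 79.4% had a summit inside. Above the gene, 3 more summits were nearest to Nkx6-3, a homeobox gene, and 1 to Gpat4.

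Slc4a1 (chromosome 11, 102348820 to 102365281) encodes band 3, the anion exchanger of the red cell. It had the most summits within 50 kb, 17, and the highest density, 14.6 per 100 kb, above that of 98.0% of protein-coding genes. None lay inside the gene or within 10 kb of it. The nearest on either side stood at almost the same distance, 10679 bases below and 10663 bases above, and these were the 2 nearest to an end of Slc4a1. Ubtf, which encodes a factor of ribosomal RNA transcription, was nearest to 7, and Rundc3a and Slc25a39, a mitochondrial carrier gene, to 4 each, the closest at 55 and 36 bases.

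Epb42 (chromosome 2, 121017891 to 121036877) encodes a membrane skeleton protein that binds band 3 and ankyrin. It had no summit inside and 3 within 50 kb, all beyond its 3′ end. The closest, at 9393 bases, lay 103 bases from an end of Ccndbp1, a gene that ends 979 bases from Epb42. The others were nearest to Tmem62 and, at 47 bases, Ubr1. Upstream of the Epb42 start no summit was listed for 103429 bases. Of the 2 binding partners' genes, Slc4a1 likewise had none inside, while Ank1 had 4.

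The other genes of the red cell programme were counted by role. A wider list of 64 matched genes, the 8 included, had a summit at 1 kb or less in 27 cases (42.2%, beside 52.9% of all protein-coding genes), at 10 kb or less in 43 (67.2%, beside 66.6%) and inside in 36 (56.2%, beside 54.5%). Without the 8 the counts were 26 of 56 (46.4%) at 1 kb and 38 of 56 (67.9%) at 10 kb. Ahsp was named in the list and not matched. Of the genes of the list other than the 8, 41 had a promoter in the table. Among these 41, 21 (51.2%) had a GATA site and 11 (26.8%) a summit in a window. Over all genes in the table the shares were 33.0% and 21.2%. Both were present in 2 of the 41 genes, beside 1068 of all 27025 genes in the table.

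Of 8 haem enzyme genes, 6 had a summit 1 kb or less from an end (75.0%, beside 52.9% of all protein-coding genes), among them Ppox at 20 bases, Urod at 30, Alad at 84, Fech at 105 and Cpox at 159. These enzymes serve haem synthesis in most cells. Uros followed at 1532 bases from an end, though a summit lay 360 bases from 1 of its start sites. Alas2, which encodes the red cell form of the first enzyme of the pathway and is X-linked, had its closest at 69079 bases. Among X-linked protein-coding genes the share at 10 kb was 29.2%. All 7 genes of the group called receptors and iron had a summit at 10 kb or less, beside 66.6% of all protein-coding genes. Kit, the receptor of stem cell factor, had one at 69 bases and Slc25a38 at 74. Tfrc, the transferrin receptor gene, had one at 87 and Slc25a37, a mitochondrial iron carrier gene, at 120. Ireb2 and Slc11a2 followed at 1060 and 1249 bases from an end, ahead of Epor. The Ireb2 promoter window nevertheless held a summit, 37 bases from the start site.

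Globins are the oxygen carriers of the red cell. Of 8 matched globin genes 0 had a summit within 1 kb or inside, beside 52.9% and 54.5% of all protein-coding genes. These genes lie in clusters on chromosomes 11 and 7 and are not 8 separate loci. The embryonic Hba-x, with a summit at 9013 bases, was the 1 of 8 within 10 kb, beside 66.6%. The same summit was the closest to Hba-a1, at 16085 bases, and lay 120 bases from an end of another gene, Nprl3. The 5 genes of the beta-globin cluster had none within 366203 bases. The summit near Hba-x lay 120 bases from the start site of Nprl3. It was also the 1 summit inside Nprl3, so no summit was listed deeper in that gene. The introns of Nprl3 hold known enhancers of the alpha-globin genes, whose exact positions were not read.

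Of 11 regulators beside the 4 named above, 7 had a summit 1 kb or less from an end (63.6%, beside 52.9% of all protein-coding genes). These were Tcf3, a partner of TAL1, at 60 bases, Zfpm1, which encodes the GATA1 cofactor FOG1, at 76, Lyl1 at 160, Myb at 219, Bcl11a at 251, Nfe2 at 462 and Gata2 at 504. Ldb1, the dimerizing partner of LMO2, followed at 2892 bases from an end and Runx1 at 4478. Both have start sites between their ends, and from these a summit lay at 17 bases in Ldb1 and 263 in Runx1. Gata1 itself, on X, had its closest at 11465 bases from an end. Measured from gene ends, distances for genes of the GATA1, TAL1 and LMO2 complex thus ranged from 60 bases (Tcf3) to 56216 bases (Tal1).

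Of 13 membrane genes beside the 3 described, 5 had a summit 1 kb or less from an end (38.5%, beside 52.9% of all protein-coding genes), all of them genes of the skeleton under the membrane: Tmod1 (44 bases), Dmtn (119 bases), Sptb (297 bases), Add2 (306 bases) and Epb41 (334 bases). Ermap and Aqp1 followed at 1282 and 6297 bases. Late red cell genes had one in 4 of 10 cases (40.0%), at Bnip3l (90 bases), Car2 (105 bases), Nprl3 and Icam4 (140 bases), with Xpo7 and Tspo2 next at 3043 and 3328 bases. Naive pluripotency factors, which are active in ESCs, had one at 1 kb or less in 10 of 14 (71.4%, beside the same 52.9%).

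**Figure D4:**
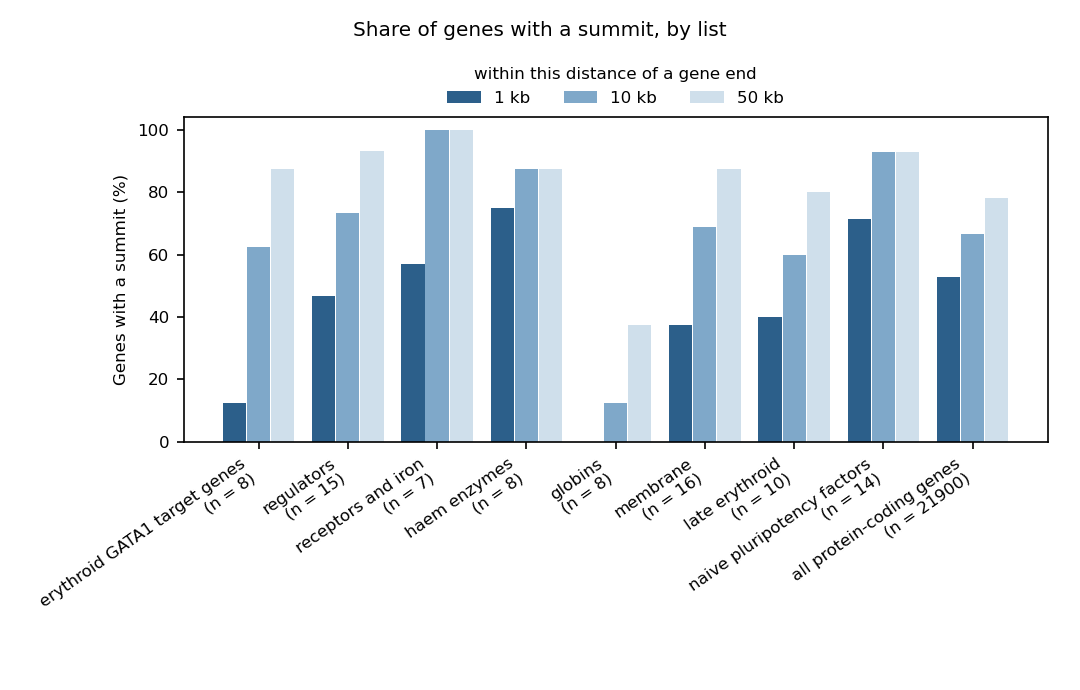
Percent of genes with a summit within 1, 10 and 50 kb of a gene end, for the 8 erythroid GATA1 target genes, for the role groups of the wider erythroid list (which include the 8), for naive pluripotency factors and for all 21900 protein-coding genes. Within 1 kb the share is 12.5% for the 8 genes, 0% for globins, 75.0% for haem enzymes and 52.9% for all protein-coding genes.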

How the data were processed

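The 5 ChIP libraries, made with an antibody against V5, and 3 inputs were sequenced, per the labels. The authors deposited 1 list of 32927 summit positions on mm10, with equal start and end, no score and no library. The submitters' processing notes name MACS2 2.1.1.20160309, HOMER 4.9.1, Bowtie 1.1.2, Trim Galore 0.4.1 with cutadapt 1.9.1, SAMtools 1.3, Picard 2.1.0 and bedtools. Their settings, the libraries joined and the threshold are not given in the sources used here. If positions were counted from 0, distances would shift by 1 base.

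Distances ran to the nearer gene end of the RefSeq table of GRCm38, which gives no exons. A summit at a start site inside a gene can thus lie far from both ends. Strand and start sites came from the promoter table. A summit within 1, 10 or 50 kb of an end, or between the ends, was counted. No test was made over the gene lists, since they were chosen with earlier results of these data known, as were the 8 genes. Shares of all genes stand beside the main counts. Named were the 8 genes, genes nearest to their summits and, of the wider list, those within 1 kb and the next 2 per role group, with others chosen after their values were seen. Some genes of the lists are not reported here by name. The counting was tested on simulated summits, where 300 of 300 genes and 300 of 300 summits matched a direct calculation. Alternatives covered distance, merging, start sites, nearest gene and summits away from gene ends. Python 3.11.15, numpy 2.4.6, pandas 2.3.3 and matplotlib 3.10.9 were used.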

Additional observations from a re-analysis of the deposited data

How the results depend on the processing

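Of 43 alternative values, 32 stayed within 1.5 times of the reported one and 11 moved. The number of the 8 genes with a summit within 10 kb, 5, became 1 at 1 kb, 3 at 2 kb, 3 from start sites (of 5 genes with one in the promoter table) and 3 when the nearest gene end had to be the gene's own. It was 7 at 50 kb, 4 inside the gene, 5 with summits within 1 kb merged and 4 with summits over 1 kb from every gene end. In the wider list 43 of 64 became 27 at 1 kb and 28 with summits over 1 kb from every end. It lay between 30 and 53 in the other settings. The 30, from start sites, were of 46 genes with one in the promoter table (65.2%, against 67.2% for 43 of 64). From the start site, the closest summit moved to 7457 bases for Epor, 5397 for Gfi1b and 28379 for Epb42. Counting all annotated genes, the background fell to 29.8% at 1 kb and 29.4% inside. Among autosomal protein-coding genes it was 55.0% at 1 kb. The letters GATA alone occurred in the promoters of 5 of 5 genes. The limit of 2 kb, the autosomal background, genes of like length and the CpG classes were chosen after seeing the data. No paired analysis was possible because the summits are deposited without the name of a library. An absent summit is limited by a depth that is unknown.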

Other observations

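Genes of megakaryocytes, the platelet precursors that also depend on GATA1, had a summit at 1 kb or less from an end in 4 of 14 cases (28.6%), beside 52.9% of all protein-coding genes, and at 50 kb or less in 13 of 14 (92.9%), beside 78.0%. The 4 were Fli1, an ETS factor gene, at 30 bases, Itgb3 at 70, Gp1bb at 514 and Gp5 at 626. Itga2b, the partner of Itgb3, had its closest at 2612 bases, and Pf4, a platelet chemokine gene, at 12700. A list of GATA factors and their FOG partners, which also held Zglp1 and Trps1, had a summit at 1 kb or less in 7 of 10 cases (70.0%). Zglp1 itself, at 88 bases, and Trps1, at 460, were among these 7.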
